A study of Mus musculus with 2 samples.

Results

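Genes of the extracellular matrix were described one by one in single cells of mouse melanoma: collagens, proteins that fold or crosslink collagen, glycoproteins and proteoglycans of the matrix, and the proteases and inhibitors that remodel it. The rule named 35 genes, and 34 of them had a row in the deposited count table of 14654 genes. Lox was not analysed here. Tumors of YUMMER1.7, a BRAF-mutant mouse melanoma line, had grown for 11 days under the skin of male C57BL/6 mice aged 8 weeks that were wild type (WT) or Siah2−/−. The injected line was the same in both hosts, so its cells carried their own Siah2 in each. Live CD45+ cells, the leukocytes, were sorted from the tumors of each genotype and a minority of sorted CD45− cells was mixed back. The protocol and the series design state different ratios for that mixture. One 10x Genomics 3′ library was made for each genotype, so that genotype, tumors, cell suspension, library and lane cannot be told apart. No comparison between the libraries has a replicate or a test. The intervals given cover the error of counting alone.

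The cells analysed were 4512 in the WT library and 5563 in the library labelled Siah2−/−, called the KO-labelled library from here on. They held 64793053 and 59090284 unique molecular identifiers (UMIs), each counting 1 captured RNA molecule. The median cell held 11439.5 and 8700.0. The libraries shared 34 cell barcodes. Siah2 itself had 660 and 505 UMIs in the cells. The tags lie at the 3′ end and the sources used here do not state which part of the gene was deleted, so that this count does not check the label. Levels are given as CPM, the UMIs of a gene per 1000000 UMIs of the class of cells. Each molecule counts once whatever its length, so levels of different genes are compared per molecule and are not scaled by length.

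The matrix of connective tissue is built from fibrillar collagens, the sheet-forming collagen IV of basement membranes and the beaded filaments of collagen VI, with glycoproteins and proteoglycans between them. Fibroblasts are its best known source, and tumor cells of mesenchymal character and macrophages can add to it. Collagen chains fold in the endoplasmic reticulum with the chaperone Serpinh1 and are crosslinked outside the cell by lysyl oxidases, whereas matrix metalloproteinases cut matrix proteins and the Timp proteins inhibit those proteases.

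Cells were sorted into classes by genes that are not members. Fibroblast-gate cells had no UMI of Ptprc, which encodes CD45, none of Hmga2, and UMIs of at least 3 of 12 fibroblast genes such as Pdgfra, Dpt and Clec3b. Hmga2-positive cells had Hmga2 UMIs, no Ptprc UMI and fewer than 3 of the 12 genes. Hmga2 encodes a chromatin protein of embryonic and many tumor cells. The fibroblast gate held 28 WT cells, or 0.621% (exact binomial interval 0.413 to 0.896), and 4 cells of the KO-labelled library, or 0.0719% (0.0196 to 0.184). Hmga2-positive cells numbered 506, or 11.2% (10.3 to 12.2), and 80, or 1.44% (1.14 to 1.79). These shares follow the sort and the mixing as well as the tumors. A few of the 12 genes were not particular to CD45− cells. Htra3 stood at 39.2 and 20.0 CPM in macrophages against 7.65 and 6.14 in Hmga2-positive cells, Pi16 at 3.11 and 11.6 against 0.600 and 2.56, and Tcf21 was at 0 in every class. With Htra3 and Pi16 left out, 22 of the 28 WT and all 4 KO-labelled cells stayed in the fibroblast gate.

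The markers went against the idea that the fibroblast gate holds a class of its own. Of the cells with no Ptprc UMI and at least 3 of the 12 fibroblast genes, 76.1% in WT (89 of 117) and 81.0% in the KO-labelled library (17 of 21) also had Hmga2 UMIs. These 89 and 17 cells are described as a class of their own, cells with both. The Hmga2-positive cells in turn carried mesenchymal genes outside the gate: Pcolce, a helper of collagen processing, stood at 543 and 707 CPM, and the transcription factor Prrx1 at 335.5 and 390.5 CPM. The 11 further fibroblast genes examined summed to 1871 and 2558 CPM in them and to 3916 and 3538 in the fibroblast gate. Not all 11 were carried by the Hmga2-positive cells, with Meg3 at 0, Cdh11 at 0.075 and 0.512 CPM, Twist2 at 2.63 and 4.09 and Fap at 8.03 and 8.19. Olfml3 stood at 28.6 and 43.5 CPM in them and at 124 and 36.6 in macrophages. A list of 8 melanocyte genes summed to 14.4 and 25.6 CPM in them, most of it S100b with 143 and 37 UMIs and Mitf with 42 and 8. The pigment genes Pmel and Dct had 4 and 3 and 2 and 2 UMIs, Tyrp1 had 1 and 0, and Mlana had none, against 959 and 2565 UMIs of Mlana in the free RNA described below. Sox10 and the keratinocyte genes Krt5, Krt14 and Krt15 were at 0 in every class and in free RNA, and Tyr had at most 2 UMIs, so that their zeros do not set these cells apart. The cells are therefore named by their gates, and the host or tumor origin of a gated cell was not tested. A panel of 6 pan-leukocyte genes was made of Ptprc, Cd53, Laptm5, Coro1a, Cd52 and Rac2. Its summed CPM was 174 and 413 in Hmga2-positive cells, against 7890 and 8547 in immune cells. Part of this is set by the gates, as Ptprc is 0 by definition in the first and stood at 338 and 419 CPM in the second. In Hmga2-positive cells 7 endothelial genes summed to at most 3.07 CPM.

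Most matrix genes were at their highest in the CD45− classes. In both libraries 30 of the 30 members with at least 20 UMIs were at least 2-fold higher in Hmga2-positive than in immune cells, against 19.6% of all genes measured in both. The median log2 ratio of these members was 5.71 in WT and 7.12 in the KO-labelled library, and that of all genes was 0.20 and 0.15. Fbln1, Fbln2, Mfap5 and Tnc had too few UMIs to be counted in both. In the KO-labelled library Fbln1, Fbln2 and Mfap5 had 11, 3 and 8 UMIs in immune cells and none in Hmga2-positive cells. In WT Fbln2 and Mfap5 stood at 0.075 and 0.225 CPM in Hmga2-positive and 0.156 and 0.287 in immune cells, whereas Fbln1 and Tnc lay the other way. The immune class comprised 3260 and 4909 cells with Ptprc UMIs, no Hmga2 UMI and at most 1 of the fibroblast genes. The plot of levels by class shows the order in which the classes lie for most members: cells of the fibroblast gate or with both on top, Hmga2-positive cells next, then free RNA and immune cells.

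**Figure D1:**
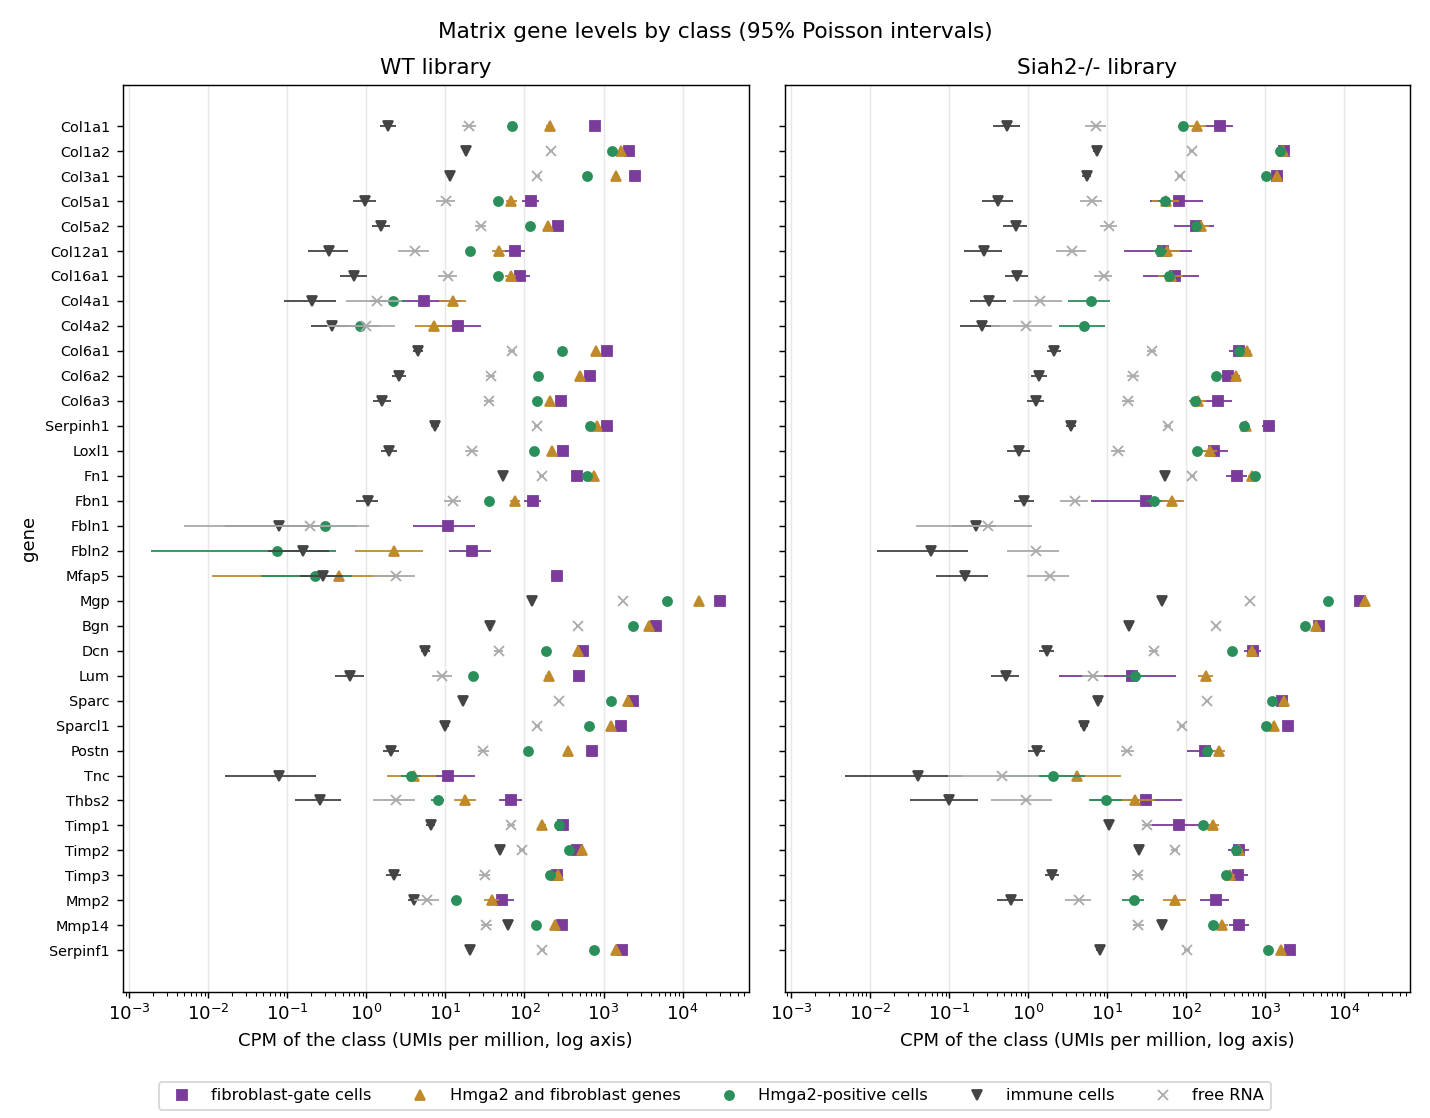
CPM of 34 matrix genes (log axis) in fibroblast-gate cells, cells with Hmga2 and fibroblast genes, Hmga2-positive cells, immune cells and free RNA, for the WT library (left) and the library labelled Siah2−/− (right), with 95% Poisson intervals as bars; classes with no UMI of a gene are not drawn. Mgp is the highest member in every class of both libraries but the immune class of the KO-labelled library, where Fn1 stands at 53.7 CPM and Mgp at 49.6.

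Mgp, which encodes matrix Gla protein, an inhibitor of calcification, led the members (6:136872435-136875823, minus strand, GRCm38). It held 29414 CPM in the WT fibroblast gate and 15729 in the KO-labelled one, 15981 and 18101 in cells with both, and 6355 and 6239 in Hmga2-positive cells. Single cells differed widely. Among the WT Hmga2-positive cells the median was 3385 CPM, the middle of the distribution ran from 934 to 9211 between its quartiles, and the highest cell reached 98102. In the KO-labelled library the median was 3356 CPM with quartiles of 1176 and 6414, and 1 of the 80 cells held 14.1% of the class's Mgp UMIs. After thinning each cell to 4000 UMIs, Mgp was found in 91.5% of the WT Hmga2-positive cells (interval 88.7 to 93.8) and 87.5% of the KO-labelled ones (78.2 to 93.8), where it had been 98.8% and 95% unthinned. T cells, which should lack the gene, had it in 20.2% and 13.4% after thinning and in 45.7% and 27.7% before, at median depths of 9282.5 and 7116 UMIs against 23750.5 and 25420.5.

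Of the fibrillar collagens, Col1a2, a chain of collagen I, was the highest in Hmga2-positive cells, at 1266 CPM (Poisson interval 1247 to 1286) in WT and 1551 in the KO-labelled library. Col1a1, the partner chain that makes up most of the collagen I molecule, was found at 69.3 and 91.1 CPM. It had a UMI in 40.7% and 46.2% of the cells, whereas Col1a2 had one in 98.2% and 91.2%. The chains of one trimer thus stood far apart in captured molecules, in the fibroblast gate as well, where Col1a1 had 787 and 264 CPM against 2080 and 1728 for Col1a2. Col3a1, which forms fibrils together with collagen I, stood at 614 and 1028 CPM in Hmga2-positive cells and at 2528 and 1393 in the fibroblast gate. The minor fibrillar chains Col5a1 and Col5a2 and the fibril-associated Col12a1 and Col16a1 ranged from 20.7 to 117 CPM in the WT Hmga2-positive cells. In the KO-labelled ones they ranged from 46.6 to 131.5 CPM.

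Collagen VI, which forms beaded filaments near the cell surface, was represented by Col6a1 at 299 and 457 CPM, Col6a2 at 147 and 241 and Col6a3 at 142 and 130 in the Hmga2-positive cells. The basement membrane chains Col4a1 and Col4a2 were near the limit of detection there, with 29 and 11 UMIs in WT and 12 and 10 in the KO-labelled library. These neighbouring genes lie head to head on chromosome 8 and overlap at their starts on opposite strands.

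Bgn and Dcn encode biglycan and decorin, small proteoglycans that bind collagen fibrils, and Lum encodes the related lumican. Bgn stood at 2362 and 3141 CPM in Hmga2-positive cells, Dcn at 189 and 375 and Lum at 22.1 and 22.5. Among the matricellular proteins, Sparc, which binds collagen and calcium, stood at 1259 and 1223 CPM, its relative Sparcl1 at 657 and 1024 and Postn (periostin) at 112 and 183. Tnc and Thbs2, encoding tenascin C and thrombospondin 2, stayed under 10 CPM in both libraries. Fn1, the fibronectin that cells assemble into fibrils, stood at 614 and 743 CPM.

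Fbn1, the main protein of microfibrils, stood at 35.4 and 38.9 CPM, whereas Fbln1, Fbln2 and Mfap5, of elastic fibers and microfibrils, had 4, 1 and 3 UMIs in the 506 WT Hmga2-positive cells and none in the 80 KO-labelled ones. The floor of 3 UMIs that stands in for a count of 0 is 1.54 CPM there. Serpinh1, the collagen chaperone, stood at 682 and 533 CPM and Loxl1, a lysyl oxidase, at 130 and 138. The protease inhibitors Timp1, Timp2 and Timp3 stood at 274, 370 and 208 CPM in WT and at 161, 427 and 315 in the KO-labelled library. Mmp14, a membrane-bound collagenase, had 141 and 214.5 CPM, and Mmp2, a gelatinase that Mmp14 activates, 13.7 and 21.5. Serpinf1, which encodes the secreted factor PEDF, stood at 760 and 1069 CPM.

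Within WT, 22 of 31 members were at least 2-fold higher in the fibroblast gate than in Hmga2-positive cells, against 8.66% of all genes. Within the KO-labelled library 6 of 28 were, against 9.17%, and 5 of 28 were in both libraries, against 1.43%. These 5 were Col1a1, Mgp, Mmp2, Mmp14 and Thbs2. Thbs2 had 3 UMIs in the KO-labelled gate, with a log2 ratio of 1.65 (−0.75 to 3.41) there. No member was 2-fold lower in either library, where 9.82% and 10.5% of all genes were, or in both, where 1.38% were. The median log2 ratio over the 28 members measured in both was 1.28 in WT and 0.49 in the KO-labelled library, with −0.00 and −0.01 over all genes. Fn1 was the member that lay lower in the fibroblast gate in both libraries by intervals that exclude 0, at log2 ratios of −0.39 (−0.57 to −0.21) and −0.76 (−1.24 to −0.33). The KO-labelled gate held only 4 cells, and with the cell richest in each gene left out only Mmp2 was 2-fold higher in both, or Mgp and Mmp2 when the UMIs of that cell were also taken from the total.

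A single WT cell carried much of the fibroblast gate's Col1a1. It held all 143 Mfap5 UMIs of the class and all 89 UMIs of Meg3, a noncoding RNA of mesenchymal cells, with 24 of Clec3b, 3 of Pi16 and none of Hmga2 or Ptprc. It was chosen after its values were seen, as the only fibroblast-gate cell with Mfap5. Of its 18344 UMIs 266 were Col1a1, which is 14501 CPM and 60.6% of the Col1a1 UMIs of the 28 cells, 371 were Col3a1 (20225 CPM) and 330 were Sparc (17990 CPM). For most other collagens its share of the class was smaller, from 6.12% for Col16a1 to 44.8% for Col5a1, with 26.3% for Col3a1 and 19.8% for Col1a2. Of Col4a1 and Col4a2 it held 2 of 3 and 5 of 8 UMIs. It also held 9 of the 12 Fbln2 UMIs, 5 of the 6 of Fbln1 and 45.7% of the Timp1 UMIs of the class. Mgp, the leading member of its class, had 1 UMI in it, or 54.5 CPM. Col3a1 was thus its highest member, where Mgp and Bgn stood above Col3a1 in the class. Without it, Col1a1 in the WT fibroblast gate stood at 321 CPM in place of 787, and its log2 ratio over Hmga2-positive cells at 2.21 in place of 3.51. Mgp then stood at 30413 CPM and Lum at 456, log2 ratios of 2.26 and 4.37.

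Matrix levels varied in steps with the number of fibroblast genes. All cells under 500 CPM of the pan-leukocyte genes, 752 in WT and 137 in the KO-labelled library, were placed by how many of the 12 fibroblast genes had a UMI, whatever their Hmga2. Mgp in WT stood at 3525, 6933, 9709, 14210 and 25243 CPM in cells with 0, 1, 2, 3 and at least 4 of the genes. Col3a1 ran from 400.1 to 2284 CPM between the ends of this scale, Col6a1 from 202 to 1332 and Lum from 13.5 to 453. In the KO-labelled library, with 23, 45, 40, 15 and 14 cells on the steps, Mgp stood at 4230, 5601, 5379, 16760 and 13097 CPM and Col3a1 ran from 534 to 1767. Without Htra3 and Pi16, Mgp in WT stood at 3773, 7092, 10616.5, 23185 and 23702 CPM over the steps of the other 10 genes. Fn1 kept to between 542 and 731 CPM over the WT steps, and stood at 498, 636, 898, 544 and 715 in the KO-labelled library. Timp1 in WT was highest with none of the genes, at 405 CPM, and stood at 180 with 3 and 247 with at least 4. In the KO-labelled library it stayed between 170 and 194 CPM. Hmga2 stood at 389 CPM with 0 genes and 121 with at least 4 in WT, and the share of cells in cycle, defined below, was 49.7% and 12.2% there. In the KO-labelled library Hmga2 stood at 234, 123, 216, 79.9 and 78.9 CPM over the steps and the share in cycle at 34.8%, 31.1%, 15%, 20% and 14.3%, so that at 2 genes they did not move together. The median UMIs of the cells on these steps were 22955, 23824, 23436.5, 24210 and 22208 in WT and 25990, 26484, 27136, 25929 and 28332 in the KO-labelled library.

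**Figure D2:**
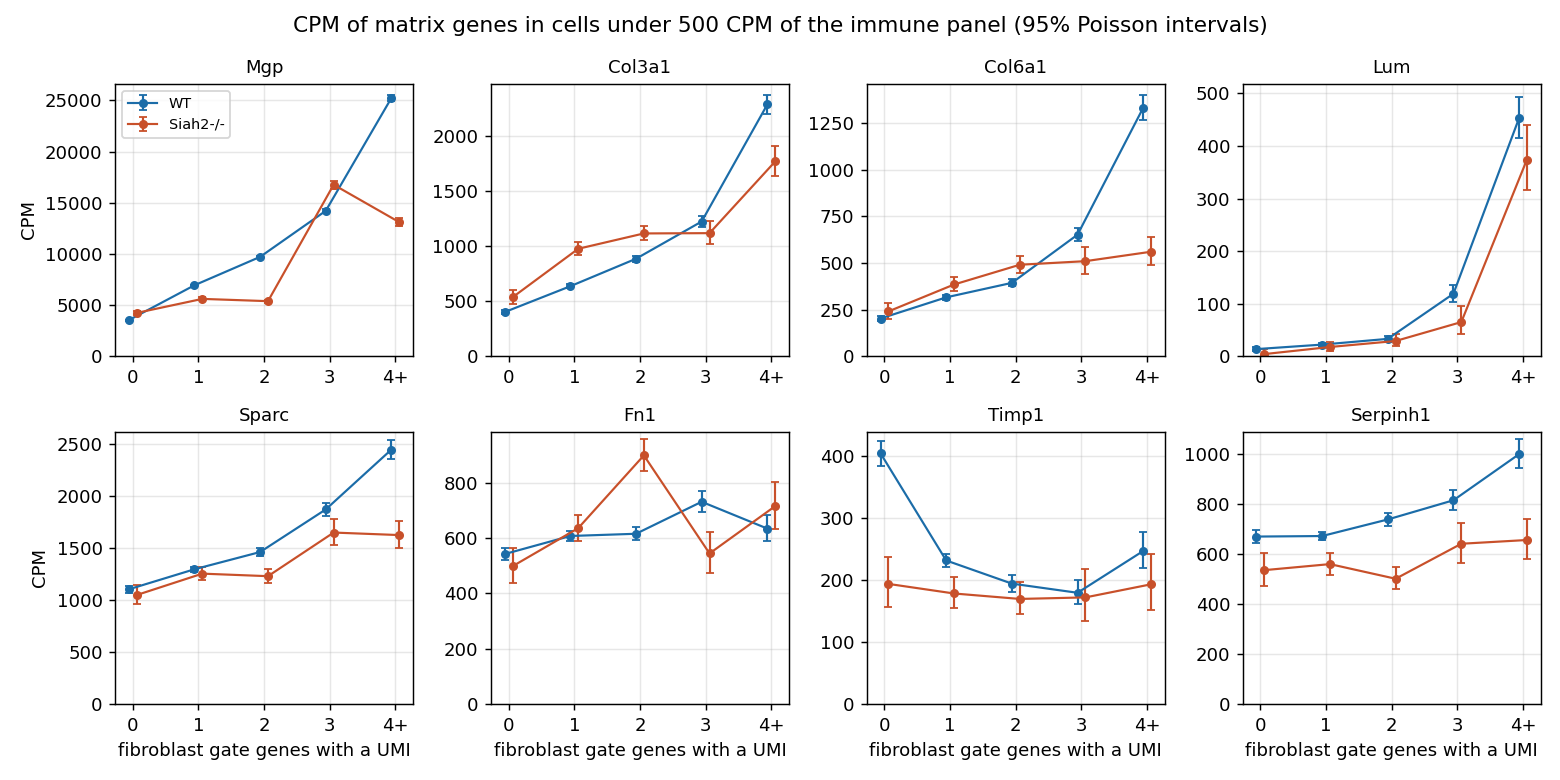
CPM of 8 matrix genes (linear axes from 0) in cells under 500 CPM of the pan-leukocyte genes, by the number of 12 fibroblast genes with a UMI, for the WT library and the library labelled Siah2−/−, with 95% Poisson intervals. Mgp in WT stands at 3525 CPM with 0 genes and 25243 with at least 4, whereas Fn1 in WT stands between 542 and 731.

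Cells in cycle had less Mgp in both libraries and, in WT, more Timp1. A Hmga2-positive cell was taken to be cycling when at least 3 of 8 genes of DNA replication and mitosis, such as Mki67 and Top2a, had a UMI. These were 198 of 506 WT cells, or 39.1% (34.9 to 43.5), and 18 of 80 cells of the KO-labelled library, or 22.5% (13.9 to 33.2). Mgp stood at 2476 CPM in cycling and 10263 in non-cycling WT cells, a log2 ratio of −2.05 (−2.08 to −2.03). In the KO-labelled library the levels were 3070 and 7257, a log2 ratio of −1.24 (−1.32 to −1.16). Timp1 lay the other way, at 369 CPM in cycling and 177 in non-cycling WT cells, a log2 ratio of 1.06 (0.96 to 1.16), and at 242 and 135 in the KO-labelled library, 0.85 (0.50 to 1.19). There 1 of the 18 cycling cells held 33.9% of the 115 Timp1 UMIs, and without it the log2 ratio was 0.33 (−0.07 to 0.72). In WT, without the richest cycling cell, it was 0.99 (0.89 to 1.09). Mgp without its richest cycling cell stood at −2.15 in WT and −1.56 in the KO-labelled library.

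In WT 14 of 30 members were at least 2-fold lower in cycling cells, against 9.49% of all genes, and 1, Timp1, was higher, against 7.45%. In the KO-labelled library 3 of 27 were lower, against 7.88%, and none higher, against 5.7%. The 3 that were lower in both libraries, against 2.82% of genes, were Mgp, Timp3 at −1.23 and −1.08, and Mmp2 at −1.90 and −1.61, on 4 UMIs in the cycling KO-labelled cells. The median log2 ratio of members was −0.95 and −0.38, and that of all genes −0.03 and 0.05. Col3a1 had −1.32 and −0.76, Postn −1.90 and −0.92 and Sparcl1 −1.55 and −0.92. One of the 18 KO-labelled cycling cells held 69.2% of the 52 Postn UMIs, and without the richest cycling cell Postn stood at −2.16 and −2.54. Sparc, Fn1 and Col6a3 lay between −0.28 and 0.27. Serpinh1, which serves collagen folding inside the cell, stood at 0.04 (−0.02 to 0.10) in WT and 0.66 (0.47 to 0.84) in the KO-labelled library. Cycling cells held more RNA, with medians of 33834.5 and 27257 UMIs against 20559.5 and 24892, and the part of depth was not tested.

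**Figure D3:**
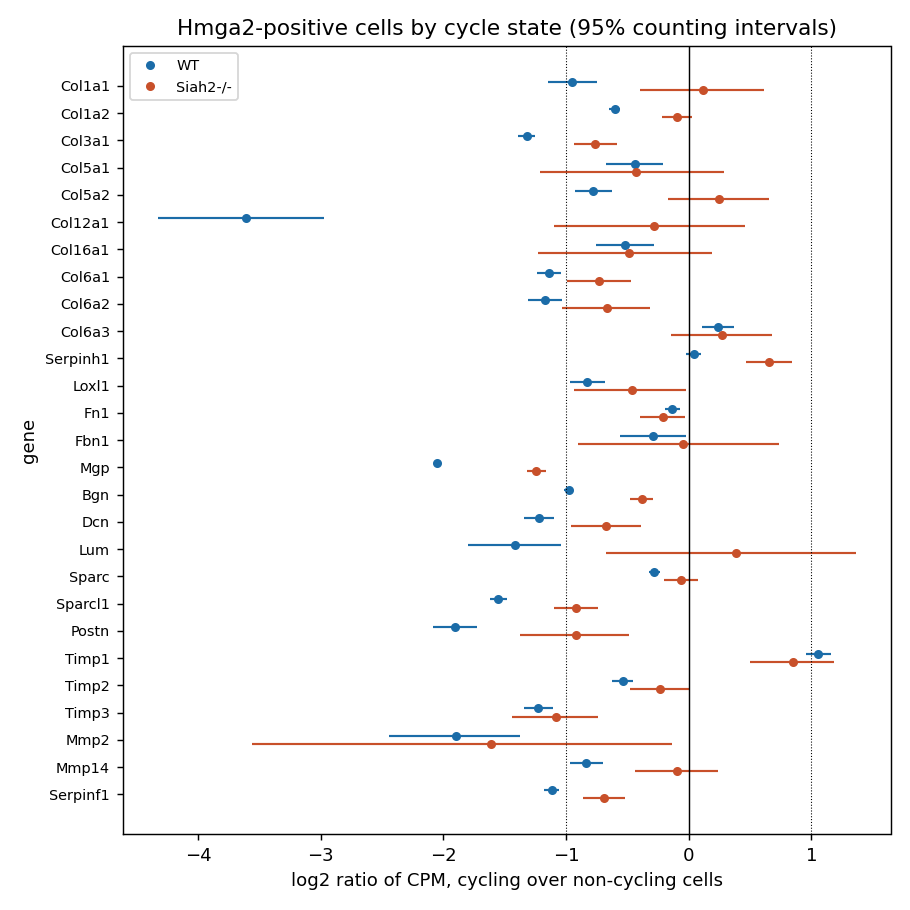
Log2 ratio of CPM in cycling over non-cycling Hmga2-positive cells for the 27 matrix genes measured in both libraries, with 95% counting intervals; dotted lines mark 2-fold. Timp1 lies at 1.06 and 0.85, the second resting in part on 1 cell, and Mgp at −2.05 and −1.24.

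Across the Hmga2-positive cells, thinned to 4000 UMIs, Spearman's rho between Mgp and Col3a1 was 0.51 in WT and 0.33 in the KO-labelled library, between Col3a1 and Col1a2 0.47 and 0.45, and between Mgp and Timp1 −0.18 and −0.11. These are descriptions over 506 and 80 cells that share a library and a sort.

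Timp1 and Col3a1, which lay on opposite sides of the cycle split in WT, and Bgn, the second member by level, are shown by the 30 bases before their RefSeq start on GRCm38.p6. All 3 lie on the plus strand, at chr1:45311508-45311537 for Col3a1, chrX:73483571-73483600 for Bgn and chrX:20870136-20870165 for Timp1. Capitals mark GGGCGG or its reverse complement CCGCCC, the core of the GC box, and in Bgn a pair of matches that overlap.
Col3a1: atatattaatcattgcttttactgctgagg
Bgn: cccgtcccctccctgtcggcCCGCCCGCCC
Timp1: atctttgggtttatcctggggcCCGCCCct
The 6 letters stood on either strand within these 30 bases in 7 of the 23 members with an entry (30.4%) and in 11.4% of 27025 genes, and within 100 bases in 11 (47.8%) and 27.3%. Bgn and Timp1 share the letters and differ in how they moved with the cycle. A match is a description of these letters and not a binding site.

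Hmga2-positive cells of the KO-labelled library had similar or somewhat higher matrix levels than those of WT. Of 31 members 3 were at least 2-fold higher, against 5.75% of all genes, and none was 2-fold lower, against 5.28%. The median log2 ratio of members was 0.39 and that of all genes 0.02. The interval lay above 0 for 19 members, below 0 for 2 and across 0 for 10, where it lay above 0 for 15.3% of all genes and below 0 for 14.7%. The 3 members past 2-fold were of low level: Col12a1 at 20.7 and 46.6 CPM, a log2 ratio of 1.17 (0.81 to 1.52), Col4a1 at 1.5 (0.39 to 2.51) and Col4a2 at 2.63 (1.24 to 4.01) on the few UMIs given above. A single cell held 41.7% of the 12 Col4a1 UMIs and 40.0% of the 10 Col4a2 UMIs in the KO-labelled class. Col4a1 turned to −1.10 when cells with 2 fibroblast genes were left out of the class and to −0.048 in all cells under 500 CPM of the pan-leukocyte genes. The 3 members were 1 with each cell weighted equally and 1 with the richest cell of each gene left out. The share of all genes under these settings is not given, so these counts cannot be read against it.

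Dcn lay just inside 2-fold, at 0.99 (0.87 to 1.11), followed by Col3a1 at 0.74 (0.67 to 0.81), Col6a2 and Postn at 0.71, Mmp2 at 0.65 (0.13 to 1.14) and Sparcl1 at 0.64. Mgp and Sparc stood at −0.03 (−0.05 to 0.00) and −0.04 (−0.10 to 0.02). The 2 members with intervals below 0 were Timp1 at −0.77 (−0.94 to −0.60) and Serpinh1 at −0.36 (−0.45 to −0.26). Cycling cells were a smaller share of the KO-labelled class, and among non-cycling cells alone the members' median was 0.081, with −0.02 over all genes. Of 30 members there 1, Col4a1, was 2-fold higher, against 3.9%, and 1, Tnc, was lower, against 3.77%. The interval lay above 0 for 12 of these 30 and below 0 for 6, against 9.69% and 7.9% of all genes. Among cycling cells alone it lay above 0 for 18 of 28 members and below 0 for 1, against 10.3% and 7.71%. The median of the cycling cells was 0.38 without the cell richest in members in each library. The part of the cycling share in the difference was not tested. Over all cells under 500 CPM of the pan-leukocyte genes, whatever their Hmga2, the median was 0.10, with 1 of 32 members, Mmp2, higher, against 4.78%, and 1, Mfap5, lower, against 4.67%. Mfap5 had 149 UMIs in WT, 143 of them in the single cell described above. Among the non-cycling Hmga2-positive cells Mgp stood at −0.50 (−0.53 to −0.47), Timp1 at −0.40 (−0.62 to −0.18), Col3a1 at 0.38 (0.30 to 0.46), Dcn at 0.64 (0.51 to 0.78) and Serpinh1 at −0.53 (−0.64 to −0.41). Over all Hmga2-positive cells Mgp stood at −0.19 (−0.22 to −0.16) without the cell richest in members in each library, in place of −0.03.

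Cells with both Hmga2 and fibroblast genes gave a median of −0.14 over 29 members, with −0.09 over all genes. None of the 29 was 2-fold higher, against 3.17%, and 1 was lower, against 8.52%. It was Col4a1, with 28 UMIs in WT and 0 in the KO-labelled library. In this class Col3a1 stood at 1419 and 1396 CPM, Col1a1 at 208 and 138 and Postn at 358 and 255. Dcn was again higher in the KO-labelled library, at 470 and 677 CPM (log2 ratio 0.53, 0.34 to 0.71), and Serpinh1 again lower, at 825 and 570 (−0.53, −0.72 to −0.35). Timp1 stood at 167 and 216 CPM here, so that the direction it had in Hmga2-positive cells did not hold. Serpinh1 was not lower in every class either. It stood at 691 and 737 CPM in the cycling Hmga2-positive cells and at 1106 and 1108 in the fibroblast gate.

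**Figure D4:**
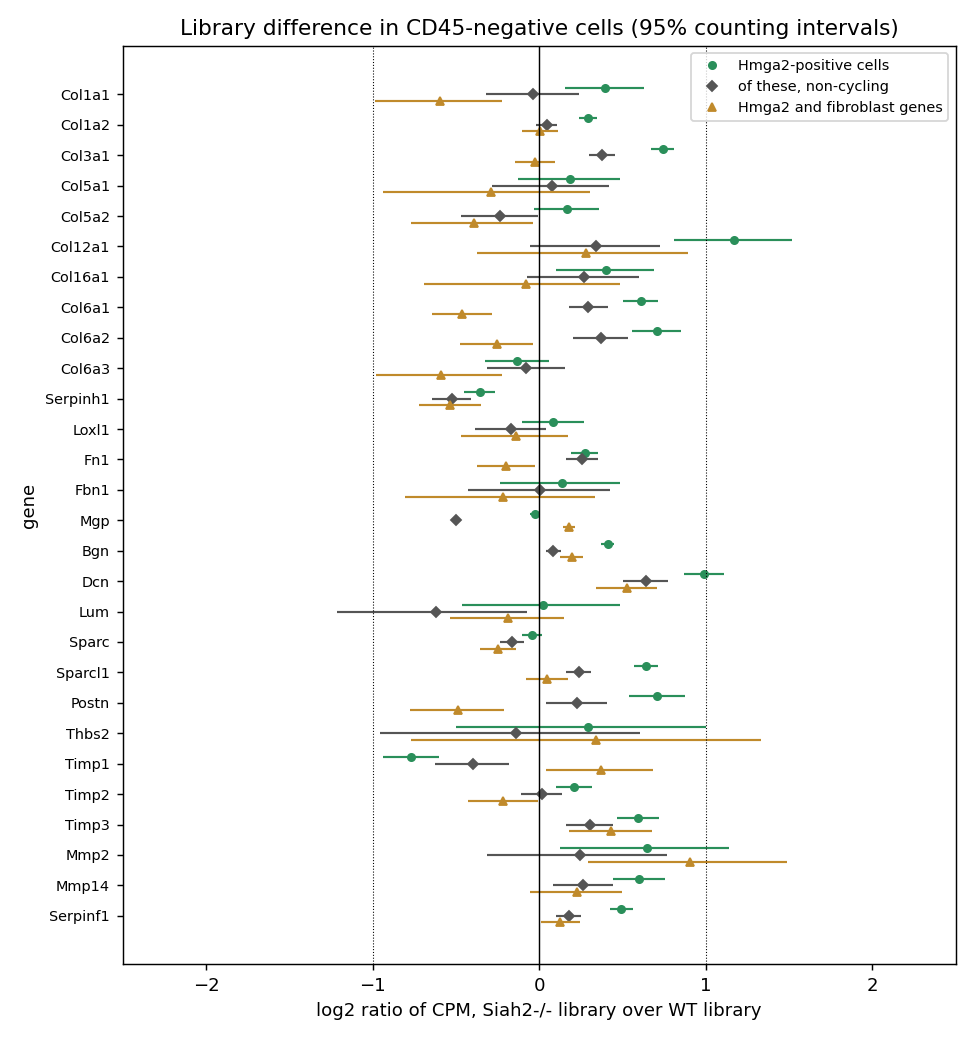
Log2 ratio of CPM, the library labelled Siah2−/− over the WT library, for matrix genes with at least 100 UMIs in Hmga2-positive cells, shown for all Hmga2-positive cells, the non-cycling ones and cells with Hmga2 and fibroblast genes, with 95% counting intervals; dotted lines mark 2-fold. Dcn lies above 0 in all 3 sets (0.99, 0.64 and 0.53) and Serpinh1 below (−0.36, −0.53 and −0.53). The non-cycling cells are part of the first set.

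In the fibroblast gate, with 28 and 4 cells, 10 of 29 members were at least 2-fold lower in the KO-labelled library, against 11.4% of all genes, and 1 was higher, against 6.14%. The median log2 ratio was −0.51, with −0.08 over all genes. Without the single Mfap5 cell 5 of 28 were lower, against 11.2% of all genes, with a median of −0.20, and Col1a1 moved from −1.57 to −0.28. With free RNA subtracted 4 of 25 were, against 3.36%. With the richest cell of each gene left out the count was 14 of 28, against 33.2%, with medians of −0.90 for members and −0.72 for all genes. When the UMIs of that cell were also taken from the total of its class it was 10 of 28, against 21.1%. Mmp2 was the member that was higher, with 29 UMIs in WT and 23 in the KO-labelled library, 52.0 and 234 CPM. Lum had 273 and 2 UMIs, 490 and 20.3 CPM. The 4 cells of the KO-labelled gate ranged from 8732 to 21351 CPM for Mgp, and the 28 WT cells from 54.5 to 96463, so that the libraries overlapped.

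Barcodes of 100 or fewer UMIs hold RNA that floats free in the suspension and enters droplets without a cell. The 582342 such barcodes of WT and 571512 of the KO-labelled library held 5118113 and 6453274 UMIs, of which the members made up 4058 and 1979 CPM. Mgp stood at 1755 and 636 CPM in this free RNA, Bgn at 472 and 237 and Sparc at 273 and 181. Of 28 members 6 were 2-fold lower in the KO-labelled library, against 3.34% of all genes, and none higher, against 2.49%, with a median of −0.72 against 0.02. In barcodes of 1 to 50 UMIs 11 of 27 were lower, against 3.65%. Hmga2-positive cells exceeded free RNA by at least 2-fold for 29 of 30 members in WT, against 21.2% of all genes, for 29 of 29 in the KO-labelled library, against 19.9%, and for 28 of 29 in both, against 15.3%.

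Immune cells showed low levels of most members and the same direction between libraries as free RNA. Mgp stood at 125 CPM in WT and 49.6 in the KO-labelled library, Bgn at 37.2 and 19.0 and Col1a2 at 18.2 and 7.34. Fn1 did not share this, at 53.9 and 53.7 CPM, and Timp1 lay the other way at 6.51 and 10.4. Mmp14 stood at 62.4 and 48.6 CPM, a log2 ratio of −0.36 (−0.44 to −0.28) and −0.42 (−0.74 to −0.10) in free RNA. The make-up of the immune class differed, with macrophages at 24.5% and 12.5% of all cells and T cells at 10.9% and 22.6%. Within macrophages Mmp14 differed by a log2 ratio of −0.04, and the part of make-up in the values of the whole class was not tested. Of 29 members 13 were at least 2-fold lower in the KO-labelled library, against 3.59% of all genes, none was higher, against 4.68%, and the median was −0.96 against −0.02. With free RNA subtracted, in the way described with the processing, 7 members kept enough UMIs and 3 were 2-fold lower, against 2.69% of all genes, with a median of −0.50. That subtraction takes the T gate as reference, and with the lower level of NK cells 25 members were left and 16 were 2-fold lower, against 3.77%, with a median of −1.94. The 13 were 4 of 30 over all barcodes of at least 1000 UMIs, against 2.42% of all genes. They were 6 of 26 with up to 2 Ptprc UMIs counted as CD45−, against 2.58%, and 6 of 30 with each cell weighted equally, against 4.02%. In the T gate 15 of 19 members were lower, against 4.52%, and none higher, against 5.25%. One WT cell of that gate held 23.6% of its member UMIs. Without the cell richest in members in each library 14 of 18 were lower, against 4.13%.

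A few members in macrophages exceeded what free RNA left in T cells, and 1, Mmp14, exceeded free RNA itself in both libraries. For each gene the CPM in a gate was divided by that in the free RNA of the same library, and the median of the members in the T gate, 0.0950 in WT and 0.0641 in the KO-labelled library, was taken as the reference for what free RNA leaves in cells. NK cells had lower medians, 0.0269 and 0.0478, and 4 times these was passed in macrophages by 4 members in both libraries, Mmp2 besides the 3 named next, and by 92.2% of all genes. The macrophage gate had medians of 0.0455 and 0.0894. Of 27 members 3 exceeded 4 times the T gate median in both libraries, where 88.1% of all genes did. Mmp14 had ratios of 2.98 and 3.89, Fn1 of 0.416 and 0.837 and Timp2 of 0.713 and 0.497. Fn1 and Timp2 thus passed the limit but stayed below their level in free RNA. With up to 2 Ptprc UMIs allowed in CD45− cells Fn1 no longer passed it in both libraries and Mmp2 did, and Mmp2 joined the 3 at the higher UMI minimum. The other members with at least 1 ratio past that limit were Mmp2 in WT, at 1.06, and Timp1 and Fbn1 in the KO-labelled library, at 0.578 and 0.318. The Mgp of macrophages, at 79.9 and 63.5 CPM, gave ratios of 0.0455 and 0.0998 and thus lay under that limit. NK cells had no member above 0.126. The dendritic cell gate, of 23 and 24 cells, had 1 member past the limit in WT and 4 in the KO-labelled library, the highest being Col5a1 at 0.669 and 0.607 on 2 and 1 UMIs. No member had enough UMIs there to compare the libraries. Of the 8 members with enough UMIs in NK cells 1, Serpinf1 on 7 and 15 UMIs, was 2-fold higher in the KO-labelled library, against 4.22% of all genes, and 1, Col3a1 on 15 and 5, was lower, against 1.86%.

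**Figure D5:**
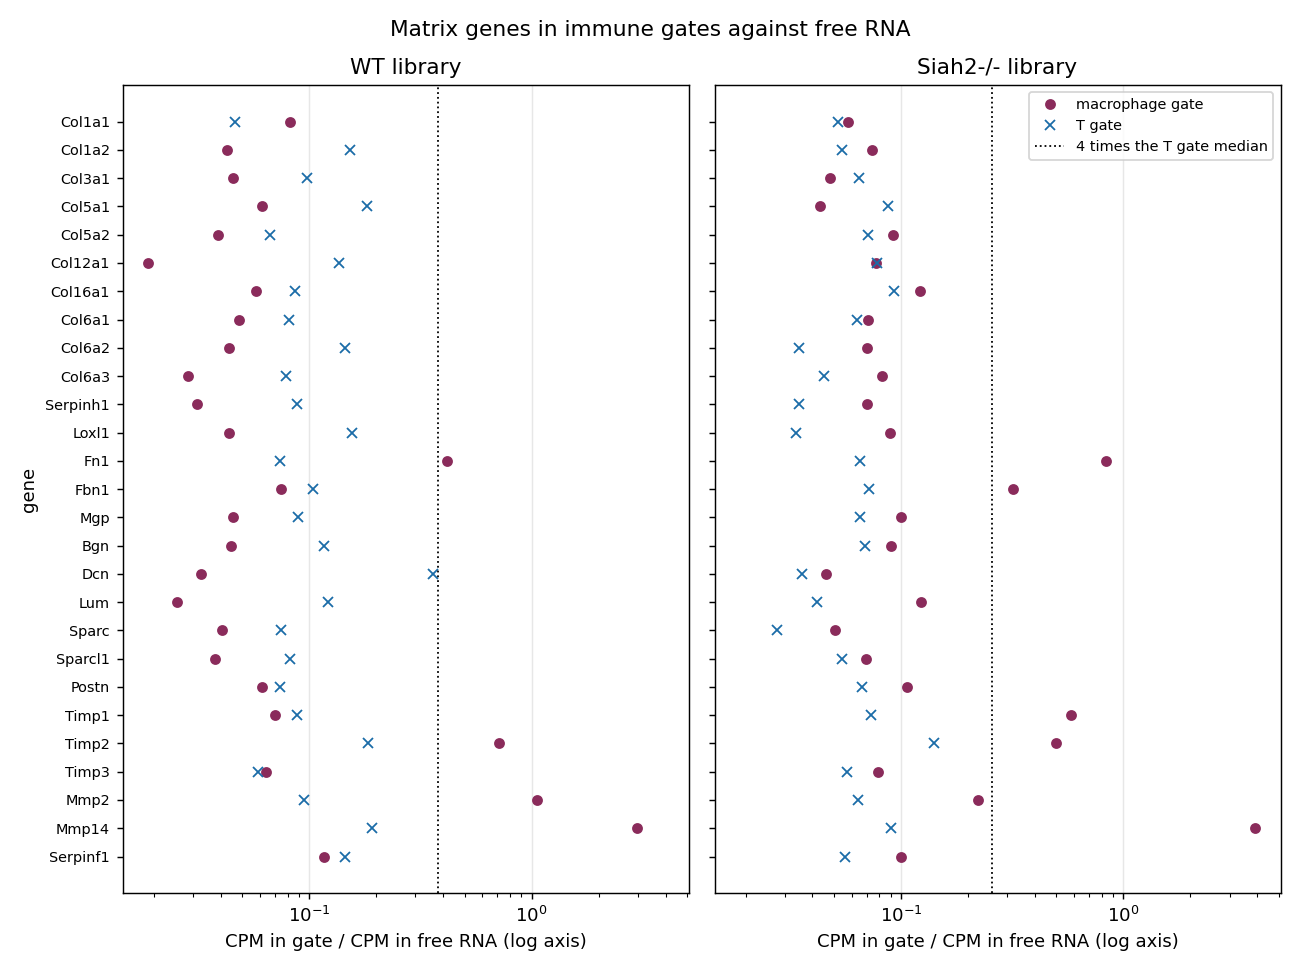
Ratio of CPM in the macrophage gate and the T gate to CPM in the free RNA of the same library (log axis) for 27 matrix genes, with 4 times the T gate median as a dotted line. Mmp14 lies furthest right in both libraries, at 2.98 and 3.89, and Fn1 and Timp2 also pass the line in both.

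Mmp14 was present in macrophages at 98.5 CPM in WT and 95.9 in the KO-labelled library, a log2 ratio of −0.04 (−0.17 to 0.10) (14:54431612-54445364, plus strand, GRCm38). After thinning, 28.8% and 30.2% of macrophages and 1.21% and 0.796% of T cells had a UMI of it; before, 61.5% and 56.0% of macrophages and 2.63% and 1.43% of T cells did. Fn1 had 885 and 730 UMIs there, a log2 ratio of 0.54 (0.40 to 0.68), and Timp2 stood at 67.0 and 35.2, −0.93 (−1.13 to −0.72). Over the 23 members measured in macrophages 1 was at least 2-fold higher in the KO-labelled library, against 4.5% of all genes, and 2 were lower, against 3.67%. Timp1 was the higher one, at 4.74 and 18.4 CPM with a log2 ratio of 1.95 (1.51 to 2.42), opposite to its direction in Hmga2-positive cells. The richest cell held 15.7% of its KO-labelled UMIs. Timp1 overlaps Syn1 on the opposite strand of chromosome X. Mmp2 was lower, at 6.22 and 0.959 CPM with a log2 ratio of −2.70 (−4.06 to −1.59), and so was Col1a1 on 21 and 3 UMIs. The median over members was −0.09, with −0.04 over all genes.

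Genes that act beside the members were taken from 5 lists, described in Hmga2-positive cells by the same 2-fold rule, which 5.75% of all genes passed upward and 5.28% downward. Of the collagen processing enzymes 22 of 25 listed had enough UMIs, and 1 was higher in the KO-labelled library and 1 lower, with a median log2 ratio of 0.18. They were Adamts2, which trims procollagen, at 1.65 and 6.65 CPM, and Pcolce2 at 11.6 and 1.02. The chief genes of this list by level, Ppib, Pcolce and P4hb, stood at 733 and 733, 543 and 707, and 267 and 240 CPM. Of 10 basement membrane genes and 14 matrix receptors none was past 2-fold, with medians of 0.24 and 0.06. Among 17 TGF-beta and contractile genes 1 was higher, the smooth muscle actin Acta2 at 7.80 and 16.9 CPM, and the median was 0.27. Among 15 proteases the cathepsin Ctss was higher, at 104 and 285 CPM, and the median was 0.11. Ctss stood at 6349 and 6298 CPM in macrophages and 1869 and 2125 in free RNA, and the part of free RNA in its difference was not tested. In macrophages 9 of 14 proteases passed 4 times the T gate median of the members, among them Mmp12 at 7.93 and 110.5 CPM and Mmp13 at 26.5 and 77.4, as did 8 of 16 collagen processing genes, 7 of 13 receptors, 4 of 11 TGF-beta and contractile genes and none of 7 basement membrane genes. With 88.1% of all genes past that limit, each of these lists lay below the share of all genes.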

How the data were processed

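The submitters' notes and the study's methods name bcl2fastq and Cell Ranger on mm10/GRCm38, with versions not given in the sources used here. The authors deposited unfiltered counts of UMIs per gene and barcode for each library, a table of raw counts for the cells they kept after filters on detected genes and mitochondrial share, and the natural log of 1 plus UMIs scaled to a fixed total per cell, as computed by the authors. The counts were used here for the 4512 WT and 5563 KO-labelled cells of the natural log table, whose values entered no result. Columns of other samples numbered 0.

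UMIs were summed per gate and library for each of the 14654 genes of the table (Python 3.11.15, numpy 2.4.6, scipy 1.17.1). The totals under CPM were taken over all 27998 genes of the unfiltered counts. Besides the gates given with the results, macrophages had Csf1r and Adgre1 without CD3 genes or Ncr1, T cells at least 2 of Cd3d, Cd3e and Cd3g without Csf1r, Adgre1 or Ncr1, and NK cells Ncr1 and Klrb1c without CD3 genes, Csf1r or Adgre1. No doublet caller was run. The immune gates leave out cells with the named markers of another gate, cells with Hmga2 and fibroblast genes are kept as a class, and doublets can remain. In all, 629 WT and 553 KO-labelled cells were in none. Levels have exact Poisson intervals, shares exact Clopper-Pearson intervals and log2 ratios exact conditional binomial intervals, all at 95% and for counting error only. With 1 library per genotype there was no test, and a gene was called when its ratio passed 2-fold with at least 20 UMIs over both sides. A count of 0 was set to 3 counts. Free RNA was subtracted by the share of Cd3d, Cd3e, Cd3g, Nkg7, C1qa, C1qb and C1qc left in CD45− classes, and by the T gate median ratio of the members in immune classes.

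All members are named. Those with the highest level are given with values, and of those past 2-fold some are only counted. The members, the gates and the lists were chosen with earlier results of these data known. The limit of 500 CPM for pan-leukocyte genes, the cycle genes the removal of single cells, the gate without Htra3 and Pi16 and the NK reference were added after seeing the data. Promoter sequence was from RefSeq for 23 of the 34 members, 11 having no entry. Protein sequence was not used here.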

Additional observations from a re-analysis of the deposited data

How the results depend on the processing

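Alternatives were recomputed one at a time, and the cause of a change was not tested. Where no share of all genes is given for an alternative, its count of members cannot be read against one. Of the values that answer a comparison 157 stayed within their margin and 60 moved. Of the values of single genes 673 stayed and 189 moved, and 2 turned direction. In the fibroblast gate the 10 members 2-fold lower in the KO-labelled library were 4 with free RNA subtracted and 5 without the cell holding Mfap5. In Hmga2-positive cells the median of 0.39 was 0.10 in all cells under 500 CPM of the pan-leukocyte genes and 0.081 in non-cycling cells. The 3 members 2-fold higher were 1 in either of these sets, 1 with each cell weighted equally and 1 with the top cell of each gene left out, with or without its total. The 0 lower were 1 in each of these 4 settings and 1 with 2 fibroblast genes needed or without Htra3 and Pi16. Col4a1 there, 1.5, turned to −1.10 with 2 fibroblast genes needed and to −0.048 in all cells under 500 CPM. In immune cells the median of −0.96 was −0.50 with free RNA subtracted by the T gate and −1.94 by the NK gate. The 0 higher were 1 with the subtraction by the T gate and 1 with no minimum of UMIs. The 13 lower, of 29, were 4 over all barcodes of at least 1000 UMIs, 6 with up to 2 Ptprc UMIs allowed and 6 with each cell weighted equally. They were 3, of 7 members left, with free RNA subtracted by the T gate. In free RNA the 0 higher were 1 with no minimum, and the 6 lower were 11 in barcodes of 1 to 50 UMIs.

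Of the members 2-fold higher in the fibroblast gate than in Hmga2-positive cells, the 6 of the KO-labelled library were 2 with 2 fibroblast genes needed and 1 with the top cell of each gene left out, or 3 with its total left out too. The 5 of both libraries were 8 over all barcodes of at least 1000 UMIs, 2 with 2 genes needed, 1 with top cells left out and 2 with their totals left out too. The share of all genes is given above for the main setting only, so these counts cannot be read against it. The fibroblast gate's share was 0.278% in WT over all barcodes of at least 1000 UMIs, and 1.24% in WT and 0.198% in the KO-labelled library with 2 genes needed. The Hmga2-positive share was 6.07% and 1.99% over all barcodes of at least 1000 UMIs, 8.42% and 0.809% with 2 genes needed, 13.9% and 2.57% with up to 2 Ptprc UMIs, and 1.97% in the KO-labelled library at the higher UMI minimum. The immune share was 69.5% and 80.1% over all barcodes of at least 1000 UMIs and 47.1% and 61.2% with up to 2 Ptprc UMIs counted as CD45−, and 89.3% in the KO-labelled library without Htra3 and Pi16 in the fibroblast gate. Thinned to 4000 UMIs, which weights cells equally, Sparc and Col3a1 in the WT fibroblast gate stood at 2562.5 and 2786 CPM and Sparc in the KO-labelled one at 1250.0. In Hmga2-positive cells Mgp and Col3a1 stood at 7629 and 749.5 in WT, and Mgp, Sparc and Col3a1 at 6112.5, 1106 and 972 in the KO-labelled library. In immune cells Mgp, Sparc and Col3a1 stood at 97.1, 12.8 and 8.05 in WT and Mgp at 47.3 in the KO-labelled library.

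The deposited table of raw counts and the higher UMI minimum moved no count of called members by over 1.5 times. No paired analysis was possible because each genotype has 1 library. The fibroblast gate of the KO-labelled library rests on 4 cells, and members under 20 UMIs, such as Fbln1 and Fbln2, could not be compared.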
